A study of Homo sapiens with 16 samples.

Results

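The genes described here are 9 targets of the transcriptional co-activators YAP and TAZ: CCN1, CCN2, ANKRD1, AMOTL2, AJUBA, CRIM1, MYOF, ASAP1 and RBMS3. They were followed through accessible chromatin, which ATAC-seq maps by the cuts that a transposase makes. The cells were MDA-MB-231, a line long established from a human breast adenocarcinoma. The deposited data hold 1 peak list for each of 4 groups of 4 samples. Cells of the selected groups had been replated in lots of 20000 about every 7 days for 75 days on collagen I-coated polyacrylamide gel and were labelled as selected on soft (1 kPa) or selected on stiff (308 kPa). The other groups were labelled as ancestral on soft (1 kPa) or ancestral on stiff (308 kPa), and all 4 as WT. The labels leave unclear whether the cells of the selected-on-stiff group had been selected on stiff gel or had been selected on soft gel and then grown on stiff gel, so the groups are called by their labels. A peak was counted with a gene when its summit lay in the gene body or within 50 kb of it on GRCh38. This gave 204 of the 129755 peaks of the selected-on-soft list and 178 of the 122591 peaks of the selected-on-stiff list, against 169 of 109578 in the ancestral-on-soft list and 187 of 116043 in the ancestral-on-stiff list. Merged over the 4 lists, these peaks formed 241 of 164016 regions, of which 220 were distal, meaning that every summit lay over 1 kb from both ends of every protein-coding gene.

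YAP and TAZ do not bind DNA themselves. They are kept in the cytoplasm and marked for degradation by the LATS kinases of the Hippo pathway, and when released they enter the nucleus and act through TEAD transcription factors, often at distal enhancers where AP-1 factors also bind. A stiff matrix and cell spreading are known to favour nuclear YAP and TAZ, and a soft matrix to disfavour it. CCN1 and CCN2 encode secreted matricellular proteins and are the most used readouts of YAP and TAZ activity, while AMOTL2 and AJUBA encode proteins that act back on the pathway.

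Six-base TEAD motifs (GGAATG or CATTCC, searched on both strands) were looked for in RefSeq promoters of build GRCh38.p14, which run from 250 bases before a start to 50 after it. Of the 9 genes, 6 matched the table, with 8 promoters. At least 1 TEAD motif was present in 14.03% of the 35116 promoters of the table, at least 2 in 1.37% and at least 3 in 0.128%. CCN2 had 3, which begin 169, 104 and 95 bases before the start. ANKRD1 had 2, which begin 220 and 128 bases before the start, and 1 AP-1 motif (TGANTCA, which reads the same on both strands, found in 7.71% of promoters) 195 bases before it. AMOTL2 and AJUBA each had 1 TEAD motif in the promoter of the second start, 69 and 59 bases before that start, and none in that of the first. No match was found in the RBMS3 and MYOF promoters. The 4 promoters with a match are printed because they place the letters that TEAD factors read inside the gene-start peaks described next. Capitals mark the TEAD motifs and, in ANKRD1, the AP-1 motif. All 4 lie on the minus strand, at chr6:131951323-131951622 for CCN2, chr10:90921038-90921337 for ANKRD1, chr3:134374398-134374697 for AMOTL2 and chr14:22976793-22977092 for AJUBA.
CCN2: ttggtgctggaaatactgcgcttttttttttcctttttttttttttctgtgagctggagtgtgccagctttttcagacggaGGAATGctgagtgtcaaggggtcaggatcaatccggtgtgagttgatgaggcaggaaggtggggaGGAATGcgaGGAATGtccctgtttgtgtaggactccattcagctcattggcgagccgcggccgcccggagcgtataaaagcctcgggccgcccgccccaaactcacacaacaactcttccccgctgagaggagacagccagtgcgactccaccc
ANKRD1: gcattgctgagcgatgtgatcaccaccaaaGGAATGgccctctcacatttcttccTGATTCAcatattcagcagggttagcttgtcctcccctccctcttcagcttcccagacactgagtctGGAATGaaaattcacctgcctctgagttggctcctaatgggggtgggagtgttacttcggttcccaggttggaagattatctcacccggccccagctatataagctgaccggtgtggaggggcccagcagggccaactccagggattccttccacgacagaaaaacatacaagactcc
AMOTL2: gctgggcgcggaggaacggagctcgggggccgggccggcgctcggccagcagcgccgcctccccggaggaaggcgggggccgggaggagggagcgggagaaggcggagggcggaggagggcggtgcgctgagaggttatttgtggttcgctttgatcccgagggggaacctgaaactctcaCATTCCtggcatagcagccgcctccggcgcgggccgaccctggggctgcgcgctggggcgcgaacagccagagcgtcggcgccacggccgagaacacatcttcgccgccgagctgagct
AJUBA: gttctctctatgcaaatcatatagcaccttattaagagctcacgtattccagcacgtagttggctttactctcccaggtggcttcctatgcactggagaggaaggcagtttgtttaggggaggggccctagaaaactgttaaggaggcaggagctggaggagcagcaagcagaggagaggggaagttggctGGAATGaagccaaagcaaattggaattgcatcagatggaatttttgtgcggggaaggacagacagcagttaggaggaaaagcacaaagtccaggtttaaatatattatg

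Each list is 1 pooled result, so replicates gave no spread and no test, and every difference below is a description of these 4 lists. Intervals are exact Clopper-Pearson 95% intervals and cover counting error only. Read totals per sample are not in these lists. The pileup, the number of fragments over the summit, was divided by the median pileup of its own list, which was 51 and 56 in the selected-on-soft and selected-on-stiff lists, against 111 and 132 in the ancestral-on-soft and ancestral-on-stiff lists. This ratio is called relative pileup. The lowest relative pileup a list holds was 0.53 (selected on soft) and 0.46 (selected on stiff), against 0.28 in both ancestral lists, so the selected lists hold no peaks as weak, on this scale, as the weakest ancestral ones. Each list also skips 1.00% of its peak numbers, in stretches longer than its widest listed peak. A region in such a stretch was called undetermined. As a check of the label, in each list 7 of 8 genes that mark the mesenchymal, basal-like state had a peak reaching to 1 kb or less from either end. VIM, AXL, CAV1, EGFR, LGALS1 and ZEB1 had one in all 4 lists, CD44 had one in both selected lists and was undetermined in both ancestral lists, and MSN had none in the selected lists and one in both ancestral lists. In the same count, the luminal marker ESR1 and the blood marker PTPRC had none in any list, while 3 to 4 of 6 blood, 4 to 5 of 6 luminal and 5 to 6 of 6 epithelial markers had one.

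Skipped numbers fell on 3 of the 9 genes and in the ancestral lists only. At CCN1, 1 number was skipped in the ancestral-on-soft list in a stretch of 24523 bp and 1 in the ancestral-on-stiff list in a stretch of 24028 bp, and both stretches cover the whole gene. CCN2 lay inside a stretch of 27513 bp with 1 skipped number in the ancestral-on-soft list. The start of AJUBA lay in stretches of 10970 bp and 10745 bp, with 1 skipped number each, in the ancestral-on-soft and ancestral-on-stiff lists. No number was skipped within 50 kb of these genes in the selected lists. Absence of an ancestral peak at these 3 gene starts therefore cannot be read as closed chromatin.

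**Figure D1:**
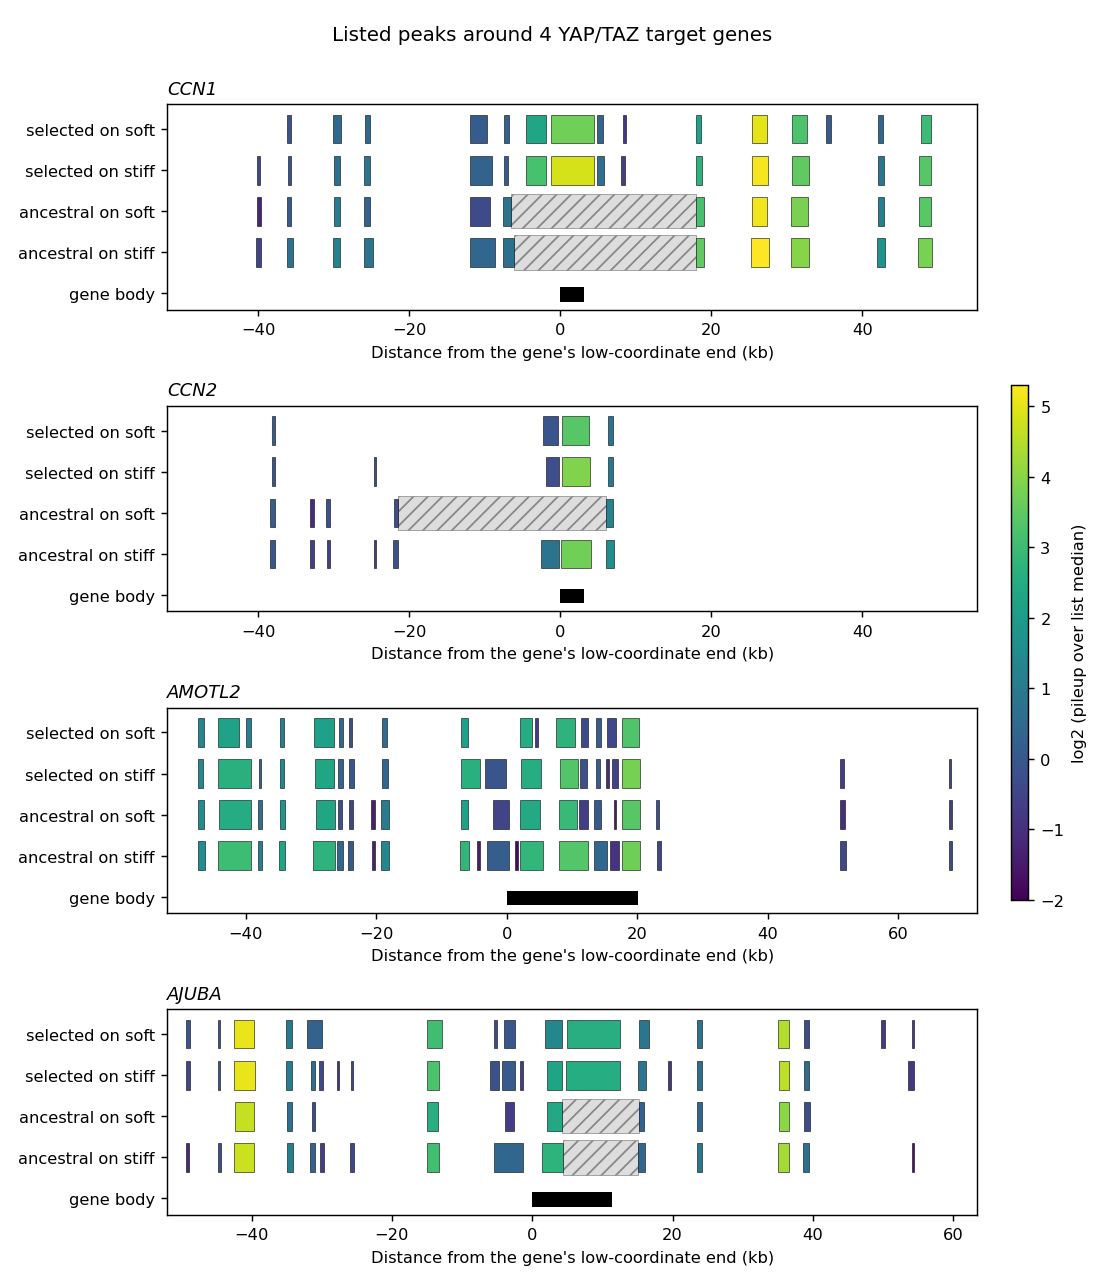
Listed peaks around CCN1, CCN2, AMOTL2 and AJUBA by distance from the gene's low-coordinate end in kb, with 1 row per list. Boxes are peaks, drawn no narrower than a fixed minimum and coloured by log2 of relative pileup; hatched stretches hold a skipped peak number. The CCN1 and AJUBA gene peaks of the selected lists face hatched stretches in both ancestral lists, and the 3 weak peaks 21 to 33 kb below CCN2 appear in the ancestral rows only.

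A peak lay at the start, or at 1 annotated end where the start is not given, of each of the 9 genes in every list that could be read there. The CCN2 promoter lay in a peak (chr6:131948317-131952321) with a relative pileup of 10.3 in the selected-on-soft list and 15.1 in the selected-on-stiff list, against 13.1 in the ancestral-on-stiff list, and it was undetermined in the ancestral-on-soft list. Its width was 3621 and 3717 bp in the selected lists (soft and stiff) and 4005 bp in the ancestral-on-stiff list. At CCN1, a peak over the whole gene (chr1:85579556-85585304) had a relative pileup of 13.3 in the selected-on-soft list, against 28.3 in the selected-on-stiff list, with widths of 5707 and 5749 bp. That pair stood farthest apart of all gene-start peaks, and both ancestral values were undetermined. ANKRD1, which encodes an ankyrin repeat protein of muscle and of stressed cells, had a start peak (chr10:90920130-90921930) at 7.76 (soft) and 9.46 (stiff) in the selected lists, against 9.47 (soft) and 12.6 (stiff) in the ancestral lists. It was lowest in the selected-on-soft list and highest in the ancestral-on-stiff list.

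Of the feedback genes, AMOTL2 encodes an angiomotin-like protein that binds YAP and holds it in the cytoplasm. Its start peak (chr3:134373030-134375813), which covers both annotated starts, stood at 9.69 (soft) and 13.7 (stiff) in the selected lists, against 10.4 (soft) and 13.0 (stiff) in the ancestral lists. In the selected and in the ancestral lists the soft-gel value was the lower one. AJUBA encodes a LIM-domain protein of cell junctions that inhibits LATS. It had a start peak (chr14:22976054-22983738) of 7640 and 7610 bp in the selected-on-soft and selected-on-stiff lists, at relative pileups of 6.02 and 5.71, and was undetermined in both ancestral lists, whose widest listed peaks measured 5650 and 5946 bp (soft and stiff).

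Among the other targets, RBMS3, which encodes an RNA-binding protein, had a start peak (chr3:29280437-29283692) at 6.35 (soft) and 7.55 (stiff) in the selected lists, against 6.59 (soft) and 7.25 (stiff) in the ancestral lists. MYOF encodes myoferlin, a ferlin of membrane fusion and repair, and its start peak (chr10:93480515-93483689) stood at 6.18 (soft) and 6.11 (stiff) in the selected lists, against 4.59 (soft) and 6.18 (stiff) in the ancestral lists. The ancestral-on-soft value was the low one, and the other 3 lay close together. CRIM1 encodes a transmembrane protein that binds bone morphogenetic proteins. At its low-coordinate end (chr2:36354742-36358637) the relative pileup was 5.45 (soft) and 4.63 (stiff) in the selected lists, against 4.96 (soft) and 6.30 (stiff) in the ancestral lists. ASAP1 encodes an ARF GTPase-activating protein of focal adhesions and invasive structures, and at its high-coordinate end the values were 9.51 (soft) and 9.88 (stiff) in the selected lists, against 8.08 (soft) and 10.3 (stiff) in the ancestral lists. None of these 4 genes separated the selected from the ancestral lists at this end.

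**Figure D2:**
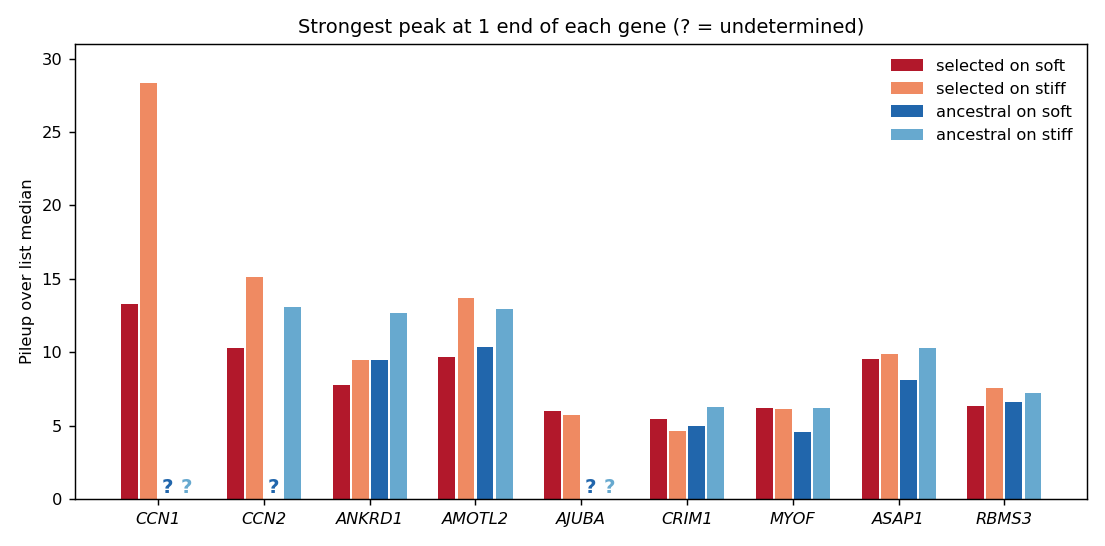
Relative pileup (pileup over list median) of the strongest peak within 1 kb of 1 end of each gene, with 1 bar per list and a question mark where the list is undetermined. The end is the low-coordinate one for CCN1, CRIM1 and RBMS3 and the high-coordinate one for the others. The selected-on-soft and selected-on-stiff bars of CCN1 stand at 13.3 and 28.3.

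Of the 241 regions, 122 (50.6%) had a peak in all 4 lists, against 43.7% of all 164016 regions. Among these 122, the ancestral-on-stiff list had the highest relative pileup in 88 (72.1%) and the selected-on-soft list the lowest in 53 (43.4%). Over all 71596 regions in 4 lists the same shares were 43.2% and 30.8%. By list, the median relative pileup was 2.34 to 3.43 in the 122 regions and 1.84 to 2.14 over all 71596. The part of region strength in these shares was not tested. The ancestral-on-stiff list was highest in 14 of 16 such regions at CRIM1, 14 of 15 at MYOF, 11 of 12 at AMOTL2 and 8 of 10 at CCN1, and in 6 of 13 at RBMS3. Without ASAP1, 63 of 83 regions (75.9%) were highest there.

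Selected and ancestral cells on soft gel were compared first. Any overlap, of 1 bp or more, with the other list's peaks made a peak shared, and undetermined peaks were left out of counts and totals. Around the 9 genes, 52 of 197 peaks (26.4%, interval 20.4 to 33.1) were in the selected-on-soft list only, against a background of 35% over all peaks of that list, and 32 of 169 (18.9%, interval 13.3 to 25.7) were in the ancestral-on-soft list only, against a background of 18.4%. ASAP1 supplied 43 of the 52. Without it, 9 of 101 peaks (8.91%) were in the selected-on-soft list only and 23 of 108 (21.3%) in the ancestral-on-soft list only. Among peaks with a deposited −log10 q-value of at least 10 in both lists, the balance also turned, to 5 selected-only and 41 ancestral-only peaks, with 1 and 15 at ASAP1. That limit keeps 57.5% of the selected-on-soft list and 78.7% of the ancestral-on-soft list, and it can also remove the partner of a kept peak. The same balance over all peaks was not computed, so the turn cannot be read as particular to the 9 genes. Without that limit, CRIM1 had 0 selected-only and 7 ancestral-only peaks and AMOTL2 had 0 and 6. RBMS3 had 1 and 5, and CCN2 had 0 and 3. AJUBA had 5 and 0, MYOF had 2 and 1, CCN1 had 1 and 1, and ANKRD1 had 0 and 0. The 5 at AJUBA were 33.3% of 15 peaks, near the background of 35%. Over all peaks, 44958 were selected-only and 19302 ancestral-only. Of the 32 ancestral-only peaks, 14 had a relative pileup below the lowest of the selected-on-soft list. The 52 selected-only peaks stood above the lowest of the ancestral-on-soft list, as every peak of the selected-on-soft list does. The part of this difference in reach in the counts was not tested.

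The same lean was found beyond several of the genes. In the 5 Mb on either side, the other peaks numbered on soft gel, 18 selected-only and 68 ancestral-only around CRIM1, 9 and 58 around CCN2, 31 and 53 around RBMS3, and 39 and 54 around AMOTL2. Around CCN1 they numbered 24 and 56. Around AJUBA they numbered 124 and 62, around ASAP1 372 and 65, around MYOF 139 and 66, and around ANKRD1 95 and 64. The selected-only shares ran from 4.97% (CCN2) to 46.9% (ASAP1), against 35% over all peaks. The ancestral-only shares ran from 13.1% (ASAP1) to 33.5% (CRIM1), against 18.4%. The part of these surroundings in the counts at the genes was not tested.

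On stiff gel, 14 of 173 peaks (8.09%, interval 4.49 to 13.2) were in the selected-on-stiff list only, against a background of 26%, and 36 of 187 (19.3%, interval 13.9 to 25.6) were in the ancestral-on-stiff list only, against a background of 19.5%. CRIM1 had 0 selected-only and 9 ancestral-only peaks, MYOF had 1 and 5, CCN2 and AMOTL2 had 0 and 3 each, RBMS3 had 1 and 3, and AJUBA had 2 and 0. CCN1 and ANKRD1 had none in either list. ASAP1 had 10 and 13. Without ASAP1, 4 of 117 peaks (3.42%) were in the selected-on-stiff list only and 23 of 130 (17.7%) in the ancestral-on-stiff list only. Of the 36 ancestral-only peaks, 19 lay below the lowest relative pileup of the selected-on-stiff list.

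**Figure D3:**
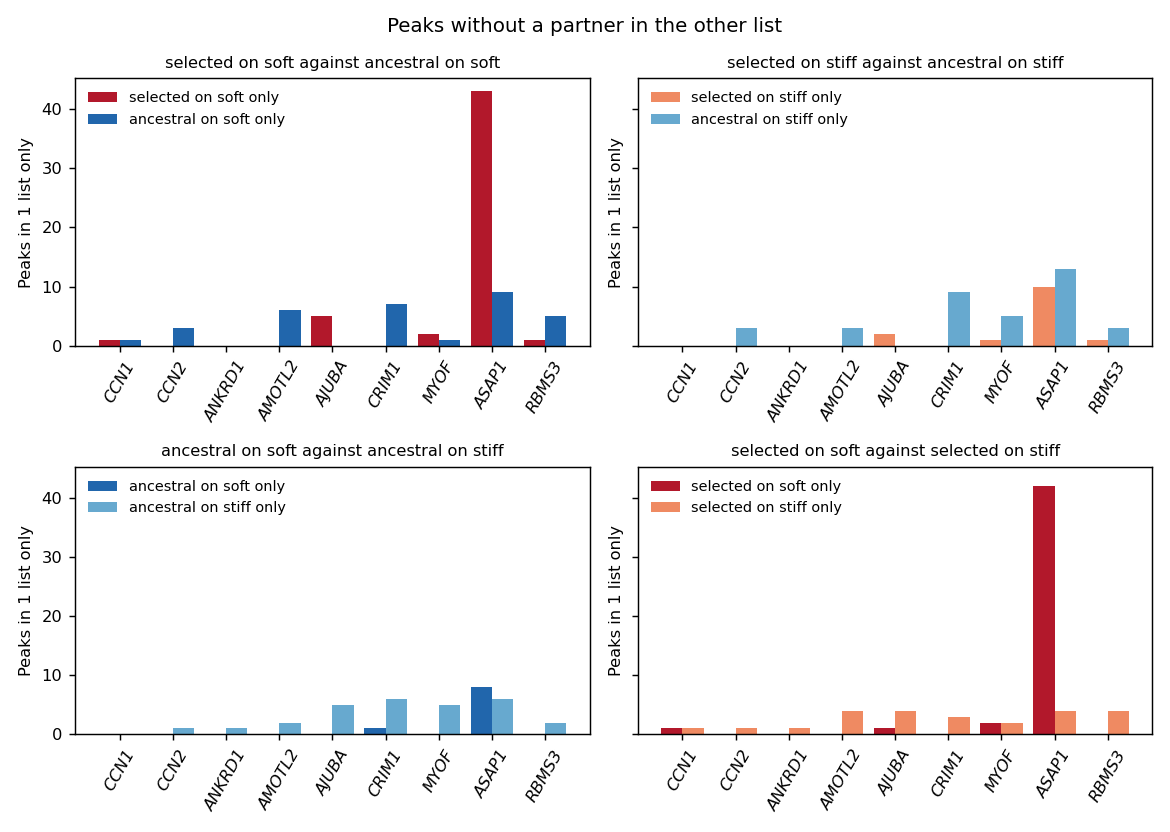
Number of peaks in 1 list only per gene, in 4 panels of 1 comparison each, with undetermined peaks left out. ASAP1 has 43 peaks in the selected-on-soft list only against the ancestral-on-soft list and 42 against the selected-on-stiff list, and no other gene exceeds 9 in any panel.

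Regions that both selected lists hold and both ancestral lists lack numbered 6 of the 241 (2.49%, against 9.35% of all regions). Those that both ancestral lists hold and both selected lists lack numbered 14 (5.81%, against 5.39% of all regions). These 6 and 14 were all distal, while the shares of all regions include gene ends. The 14 had median relative pileups of 0.58 (ancestral on soft) and 0.67 (ancestral on stiff), and 1 of them exceeded its list's median. Of the 14, 7 stood at or above the lowest relative pileup of the selected list of the same gel (0.53 on soft and 0.46 on stiff) on both gels, and 7 stood below it on at least 1 gel, so that for these a missing selected peak does not show a loss. The 7 above it numbered 2 each at CCN2, CRIM1 and ASAP1 and 1 at AMOTL2. CCN2 had 3 ancestral-only regions downstream of the gene. One, at chr6:131915090-131915620, stood at 0.48 (soft) and 0.64 (stiff) in the ancestral lists, the next, at chr6:131917206-131917691, at 0.88 and 0.65, and the third, at chr6:131926015-131926761, at 0.83 and 0.89. They lie 32764, 30656 and 21644 bp below the gene. AMOTL2 had one 20617 bp downstream (chr3:134334525-134335166, at 0.40 in both ancestral lists, below the lowest selected value on both gels) and one 3123 bp upstream of the gene (chr3:134378219-134378971, at 0.84 on soft and 0.69 on stiff gel).

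CRIM1 had 2 ancestral-only regions below the gene, at chr2:36329494-36330071 (0.79 on soft and 0.85 on stiff gel in ancestral cells) and chr2:36352606-36353303 (0.63 and 0.70), and 1 in its body, at chr2:36485168-36485782 (0.52 and 0.73). RBMS3 had chr3:29512774-29513556 (0.32 on soft and 0.54 on stiff gel in ancestral cells) and chr3:29649946-29650430 (0.52 on both), both in the gene body and both below the lowest selected-on-soft value. It had 1 selected-only body region, chr3:29473230-29473890, at 1.02 in the selected-on-soft list and 0.79 in the selected-on-stiff list. ASAP1 had 5 selected-only and 4 ancestral-only regions. The strongest ancestral-only one, chr8:130226886-130227535, stood at 0.88 (soft) and 1.05 (stiff) in the ancestral lists, and a second, chr8:130228172-130228654, lies next to it at 0.66 and 0.86. The other 2 (chr8:130081225-130081617 and chr8:130270933-130271315) were at 0.32 to 0.41, below the lowest selected value on both gels. Its selected-only regions ranged from 0.69 to 0.86 in the selected-on-soft list and from 0.52 to 0.71 in the selected-on-stiff list, led by chr8:130004868-130006245, which lies below the gene in the body of CYRIB. CCN1, ANKRD1, AJUBA and MYOF had no region of either kind.

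A further 13 regions (5.39%, against 3.06% of all regions) were missing in the selected-on-soft list alone. AMOTL2 held 4 of them, CRIM1 and RBMS3 3 each, and CCN1, MYOF and ASAP1 1 each. Among the 13, the lowest ancestral-on-soft values at CCN1, AMOTL2, CRIM1 and MYOF were 0.43, 0.50, 0.49 and 0.48. They lie below 0.53, the lowest relative pileup of the selected-on-soft list, so for those regions a missing peak does not show a loss on soft gel. The highest value on soft gel was that of a region in the body of CRIM1, chr2:36507051-36507719, with no peak in the selected-on-soft list and 1.61 in the selected-on-stiff list, against 1.71 (soft) and 1.55 (stiff) in the ancestral lists. The highest value on stiff gel was that of chr3:134317266-134317800, downstream of AMOTL2, with no peak in the selected-on-soft list and 1.14 in the selected-on-stiff list, against 1.59 (soft) and 2.12 (stiff) in the ancestral lists. At the low-coordinate end of AMOTL2, chr3:134352081-134355748 was likewise missing there and stood at 0.95 in the selected-on-stiff list, against 0.69 (soft) and 1.12 (stiff) in the ancestral lists. RBMS3 lacked a body region, chr3:29360211-29360706, in the selected-on-soft list, with 0.62 in the selected-on-stiff list, against 1.21 (soft) and 0.86 (stiff) in the ancestral lists. These 4 regions stand above 0.53, the lowest relative pileup listed in the selected-on-soft list, in each list that holds them.

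Among the 9 genes, ASAP1 stood apart by the number of peaks in the selected-on-soft list. It had 96 peaks there and 56 in the selected-on-stiff list, against 61 (soft) and 57 (stiff) in the ancestral lists. Of the 96, 44.8% had no partner in the ancestral-on-soft list and 43.8% none in the selected-on-stiff list. For the other selected-on-soft peaks within 5 Mb these shares were 46.9% and 38.4%, against 35% and 21.3% over all peaks. The part of the surroundings in the ASAP1 count was not tested. Of the 101 ASAP1 regions, 32 were found in the selected-on-soft list alone, 23 of them in the gene body. Around the 9 genes 14.5% of the 241 regions were found in that list alone, against 12.7% of all regions. These 32 were weak, with relative pileups of 0.55 to 0.86 (median 0.65), deposited fold enrichments of 2.00 to 3.11 and a median width of 453 bp. The strongest ASAP1 regions were open in all 4 lists. One of them, chr8:130067364-130069152, in the gene body, stood at 9.76 (soft) and 11.1 (stiff) in the selected lists, against 15.4 (soft) and 19.1 (stiff) in the ancestral lists, so that both selected values were the lower.

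**Figure D4:**
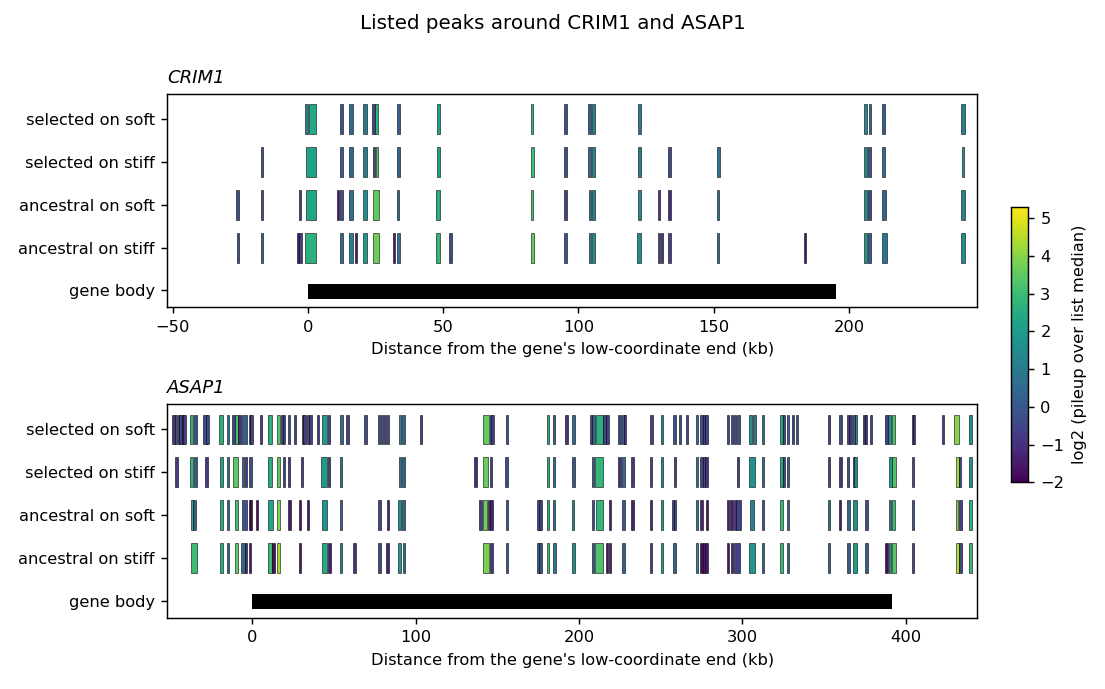
Listed peaks around CRIM1 and ASAP1 by distance from the gene's low-coordinate end in kb, with 1 row per list and boxes coloured by log2 of relative pileup. CRIM1 has 18 peaks (selected on soft) and 20 (selected on stiff), against 23 (ancestral on soft) and 28 (ancestral on stiff); ASAP1 has 96 and 56, against 61 and 57, and the added boxes of its top row are dark, meaning weak.

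For regions with a peak in both lists, the log2 ratio of relative pileup was centred on the median of all such regions. Between selected and ancestral cells on soft gel, the centring removed 0.15, and the median over the 130 regions of the 9 genes was −0.22, with 87 below 0 and 43 above. Scaled instead to the median of regions in all 4 lists, without centring, it was −0.068. A change of at least 2-fold was called a rise or a fall: 2 rose (1.54%, against a background of 10.1%) and 4 fell (3.08%, against a background of 3.22%). A shared region reaches at least 0.53 (soft) or 0.46 (stiff) in the selected list but may be as low as 0.28 in the ancestral one. Weak regions thus have more room to rise than to fall. The part of this in the shares was not tested on either gel. By gene, the median was −0.64 at CCN1 (8 of 10 regions below 0), −0.43 at ANKRD1, −0.42 at CCN2 (2 regions), −0.36 at CRIM1 (14 of 16), −0.29 at AMOTL2, −0.24 at MYOF, −0.20 at RBMS3 and −0.07 at ASAP1, which was 0.075 under that other scaling. AJUBA had a positive median, 0.27, with 8 of 10 regions above 0. From the deposited fold enrichment without centring, AJUBA had −0.44, against −0.71 for all regions. The 115 distal regions had a median of −0.24 and the 15 gene-end regions −0.01, with quartiles of −0.23 and 0.28, and the difference between these kinds of region was not tested.

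On stiff gel, the median over 146 regions was −0.24, with 110 below 0, and −0.073 when scaled to regions in all 4 lists. There 3 rose (2.05%, against a background of 8.44%) and 5 fell (3.42%, against a background of 2.54%). The gene medians were −0.45 at CCN1, −0.40 at CRIM1, −0.25 at AMOTL2, −0.23 at MYOF, RBMS3 and ASAP1, −0.17 at ANKRD1, −0.02 at CCN2, which was 0.15 under that scaling, and 0.17 at AJUBA, which was −0.31 within 10 kb of the gene and −0.42 from fold enrichment without centring, against −0.59 for all regions. Distal regions had a median of −0.27 and gene-end regions 0.04. Regions were also narrower in the selected-on-stiff list, in 122 of 146, with a median log2 width ratio of −0.21, against −0.12 over all regions. All other regions within 5 Mb had centred medians of −0.34 around CRIM1, −0.31 around CCN2, −0.16 around CCN1 and 0.23 around AJUBA in this comparison.

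The 2 largest rises and falls of each of these comparisons lay at ASAP1. The largest fall on soft gel was that of a body region, chr8:130404636-130405653, at 0.67 (soft) and 0.68 (stiff) in the selected lists, against 1.61 (soft) and 1.09 (stiff) in the ancestral lists, with a centred log2 ratio of −1.42 on soft gel. The largest fall on stiff gel was that of another, chr8:130247652-130249348, stood at 1.37 (soft) and 0.98 (stiff) in the selected lists, against 2.41 (soft) and 3.11 (stiff) in the ancestral lists, a centred log2 ratio of −1.66 on stiff gel. A region above the gene, chr8:130490884-130492354, stood at 3.04 (soft) and 3.29 (stiff) in the selected lists, against 6.78 (soft) and 7.48 (stiff) in the ancestral lists, and fell in both comparisons, by 1.30 on soft and 1.18 on stiff gel on the centred log2 scale. In the opposite direction, a region at the low-coordinate end, chr8:130050270-130051891, stood at 1.08 (soft) and 0.80 (stiff) in the selected lists, against 0.34 (soft) and 0.39 (stiff) in the ancestral lists, with ratios of 1.51, the largest rise on soft gel, and 1.06. The body region chr8:130074347-130075123 had a ratio of 1.08 on soft gel. The largest rises on stiff gel were those of the body regions chr8:130328449-130328884, with a ratio of 1.27, and chr8:130326804-130327370, with 1.17, both at 0.30 to 0.80 in the lists that hold them. In the ancestral list of the same gel, each of these largest rises stood at 0.30 to 0.36, near the lowest listed value of 0.28. Outside ASAP1, the falls past 2-fold included a CCN1 region 15264 bp above the gene, chr1:85598701-85599802, at 4.45 (soft) and 6.52 (stiff) in the selected lists, against 8.93 (soft) and 11.4 (stiff) in the ancestral lists. Its ratios were −1.15 on soft and −0.81 on stiff gel. The other such falls were in the AJUBA body (chr14:22972567-22975532, −1.15 on soft gel), downstream of CCN2 (chr6:131945693-131948016, −1.08 on stiff gel) and downstream of AMOTL2 (chr3:134336015-134337289, −1.06 on stiff gel). The strongest CCN1 region, chr1:85606080-85608377, 23405 bp above the gene, stood at 32.1 (soft) and 37.0 (stiff) in the selected lists, against 35.1 (soft) and 39.3 (stiff) in the ancestral lists. Its centred ratios, −0.27 and −0.08, were far from 2-fold.

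At AJUBA, the strongest region, chr14:22928631-22931607, which lies at the end of another gene, stood at 33.6 in both selected lists, against 25.1 (soft) and 26.0 (stiff) in the ancestral lists. An upstream region in the body of C14orf93, chr14:23006170-23007755, stood at 21.9 (soft) and 23.7 (stiff) in the selected lists, against 16.4 (soft) and 20.0 (stiff) in the ancestral lists. Both selected values exceeded both ancestral ones in each. A region inside the AJUBA body, chr14:22972567-22975532, did the reverse, at 2.59 (soft) and 4.84 (stiff) in the selected lists, against 5.18 (soft) and 6.53 (stiff) in the ancestral lists.

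**Figure D5:**
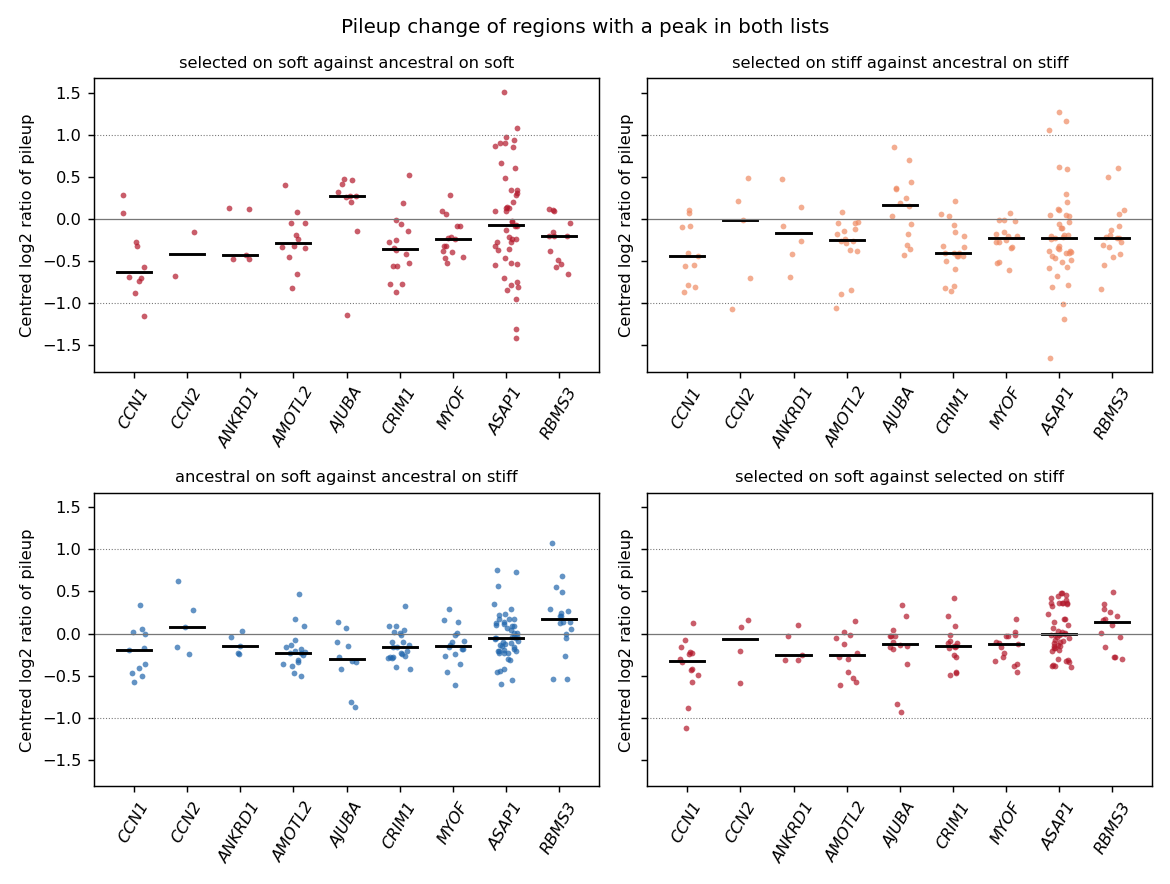
Centred log2 ratio of relative pileup for each region with a peak in both lists, by gene, in 4 panels of 1 comparison each. Points are regions, black bars are gene medians and dotted lines mark 2-fold. In the upper panels the bars lie below 0 for all genes but AJUBA (0.27 and 0.17), although ASAP1 on soft gel and CCN2 on stiff gel lie above 0 when scaled to regions in all 4 lists; in the lower panels CCN1 (−0.20 and −0.32) lies below 0 and RBMS3 (0.18 and 0.13) above, although RBMS3 in ancestral cells is at −0.012 without centring and in selected cells at −0.060 from fold enrichment.

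The gel comparisons set the soft list against the stiff list, for the ancestral groups and for the selected groups. Since the labels leave the gel of selection unclear, the selected lists may also differ in selection history. In ancestral cells, 9 of 169 peaks (5.33%, interval 2.46 to 9.87) were in the soft list only, against a background of 9.1%, and 28 of 185 (15.1%, interval 10.3 to 21.1) were in the stiff list only, against a background of 16.1%. ASAP1 held 8 of the 9 soft-only peaks and CRIM1 the remaining one. Stiff-only peaks numbered 6 each at CRIM1 and ASAP1, 5 each at AJUBA and MYOF, 2 each at AMOTL2 and RBMS3, and 1 each at CCN2 and ANKRD1. Without ASAP1, 1 of 108 peaks (0.926%) was in the soft list only and 22 of 128 (17.2%) in the stiff list only. In selected cells, 46 of 204 peaks (22.5%, interval 17.0 to 28.9) were in the soft list only, against a background of 21.3%, and 24 of 178 (13.5%, interval 8.83 to 19.4) were in the stiff list only, against a background of 14%. ASAP1 supplied 42 of the 46. Without it, 4 of 108 peaks (3.70%) were in the soft list only and 20 of 122 (16.4%) in the stiff list only. Again, with −log10 q of at least 10 in both lists the counts were 2 and 15. That limit keeps 57.5% of the selected-on-soft list and 63.2% of the selected-on-stiff list. The same counts over all peaks were not made, so these cannot be read as particular to the 9 genes. Stiff-only peaks without that limit numbered 4 each at AMOTL2, AJUBA and RBMS3 and 3 at CRIM1. A single region downstream of CCN2, chr6:131923502-131923806, was open in both stiff lists and in neither soft list, at 0.84 in the selected-on-stiff list and 0.60 in the ancestral-on-stiff list. So were 1 region each at ANKRD1 (chr10:90937683-90938295), AJUBA (chr14:22945257-22945735) and RBMS3 (chr3:29279375-29279839). They were as weak, at 0.48 in the selected-on-stiff list and 0.35 in the ancestral-on-stiff list at ANKRD1, 0.77 and 0.75 at AJUBA, and 0.50 and 0.36 at RBMS3. Regions of this kind numbered 4 of the 241 (1.66%, against 1.07% of all regions). The selected-on-stiff values at ANKRD1 and RBMS3 lie below 0.53, the lowest relative pileup of the selected-on-soft list. For these 2, a missing selected-on-soft peak does not show a difference between gels.

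In shared regions the soft-gel values were the lower ones at most of the genes, by small amounts. The median centred ratio of soft over stiff gel was −0.12 over 154 regions in ancestral cells, with 99 below 0, after a centring of −0.19. It was −0.11 over 142 regions in selected cells, with 97 below 0, and −0.029 when scaled to regions in all 4 lists. Under that scaling CCN2 stood above 0 in both gel comparisons, at 0.11 (ancestral) and 0.018 (selected), and ASAP1 in selected cells, at 0.071. At 2-fold, 1 region rose (0.649%, against a background of 0.231%) and 0 fell (background 0.248%) in ancestral cells, and 0 rose (background 0.127%) and 1 fell (0.704%, against a background of 0.803%) in selected cells. The region that fell is the CCN1 gene peak, at 13.3 on soft gel, against 28.3 on stiff gel in selected cells, with a ratio of −1.13. The CCN1 region next to it, chr1:85576190-85578834, stood at 5.02 in the selected-on-soft list, against 9.05 in the selected-on-stiff list. Between these lists, 13 of 14 CCN1 regions were below 0. In ancestral cells the CCN1 median was −0.20, with the gene itself undetermined. The gene-end regions had a median of −0.15 in ancestral cells (11 of 16 below 0) and −0.18 in selected cells (16 of 19 below 0).

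RBMS3 leaned the other way on this axis relative to all regions. Its median was 0.18 in ancestral cells (13 of 18 regions above 0), or −0.012 without centring, and 0.13 in selected cells (9 of 14), or −0.060 from fold enrichment without centring, against −0.19 for all regions. The region that rose is in its body, chr3:29525022-29525898, at 2.05 on soft gel, against 1.11 on stiff gel in ancestral cells, and at 2.41 on soft gel, against 1.68 on stiff gel in selected cells. Its centred ratios were 1.07 and 0.49. The largest soft-gel deficits in ancestral cells lay at AJUBA, where chr14:22965142-22969858 stood at 0.63 on soft gel, against 1.31 on stiff gel, and chr14:23009721-23010757 at 0.80 on soft gel, against 1.61 on stiff gel. In selected cells a region of the AJUBA body stood at 2.59 on soft gel, against 4.84 on stiff gel.

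Another 14 genes of a published YAP and TAZ target signature were counted in the same way. On soft gel they had 56 of 227 peaks (24.7%, against a background of 35%) in the selected list only and 25 of 195 (12.8%, against 18.4%) in the ancestral list only. On stiff gel they had 43 of 236 (18.2%, against a background of 26%) and 37 of 223 (16.6%, against 19.5%). All 4 shares lay below the background. ARHGEF17 supplied on soft gel 27 peaks of the selected list and 3 of the ancestral list, and FOXF2, a forkhead factor gene, 9 and 1. TGFB2, a transforming growth factor gene, went the other way with 1 and 4. Between gels, 5 of 194 peaks (2.58%, against a background of 9.1%) were in the ancestral-on-soft list only and 38 of 223 (17.0%, against 16.1%) in the ancestral-on-stiff list only, and 21 of 228 (9.21%, against 21.3%) were in the selected-on-soft list only and 32 of 236 (13.6%, against 14%) in the selected-on-stiff list only.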

How the data were processed

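Per the labels' protocols, each library took 50000 nuclei out of those isolated from 200000 cells. MACS2 2.2.7.1, Bowtie2 2.4.5, Trimmomatic 0.36, MultiQC 1.1 and FastQC 0.11.4, and the build GRCh38, are named in the submitters' processing notes. Each of the 4 lists was deposited for a group of 4 samples, and how the 4 were combined is not given in the sources used here. Per the file headers, the authors gave each peak a pileup signal, a numbered name, a −log10 q-value and a fold enrichment over background. The deposited pileup is a whole number not scaled to depth, so it was divided by its list's median here, and its log2 ratio was centred on all regions present in both lists.

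Peaks of all lists that overlapped by 1 bp or more became 1 region. A region or peak in a stretch holding a skipped number was set apart as undetermined. Gene positions and promoters came from RefSeq tables of GRCh38.p14. The 9 genes, the other 14 targets and the marker lists were chosen with earlier results of these data known. Regions to name were taken from the gene-end peaks, the distal regions in both selected or both ancestral lists only, the 3 unshared peaks of highest fold enrichment per gene, direction and comparison, and the 2 largest rises and falls per comparison, and not all of them are named. Other regions were missing in a single list, open in both stiff lists only, the strongest of a gene or next to a named one. Falls past 2-fold outside ASAP1 were also named. These regions and the ASAP1 exclusion were chosen after their values were seen. The steps were tested on an altered copy of the ancestral-on-soft list, with peaks and peak numbers removed and some pileups changed. Differences in depth or in peak edges were not part of that test. Work used matplotlib 3.10.9, scipy 1.17.1, pandas 2.3.3, numpy 2.4.6 and python 3.11.15.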

Additional observations from a re-analysis of the deposited data

Results flagged for a closer look

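ASAP1 was set apart because its balance of unshared peaks between selected and ancestral lists had opposite signs on the 2 gels. Selected-only minus ancestral-only peaks came to 34 on soft gel (43 against 9) and −3 on stiff gel (10 against 13). The difference between the gels was not tested, since each group has 1 list. With peaks limited to a −log10 q of 10 or more, the soft-gel balance was −14, and within 100 kb of the gene the stiff-gel balance was 5, so neither sign held under every setting tried.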

How the results depend on the processing

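Of 70 recomputed summary values, 46 stayed within the interval or 1.5-fold range of the reported one. The share of unshared peaks that belonged to the selected-on-soft list, 61.9% against the ancestral-on-soft list, was 10.9% with −log10 q of at least 10, 18.2% with the top 54789 peaks of each list and 28.1% without ASAP1; against the selected-on-stiff list, where it was 65.7%, it was 11.8%, 20.0% and 16.7% under the same settings. The selected-on-stiff share, 28.0%, was 7.14%, 6.67% and 14.8%, and the ancestral-on-soft share against the ancestral-on-stiff list, 24.3%, was 4.35% without ASAP1. Over all peaks, the selected-on-soft share was 70.0% against the ancestral-on-soft list and 61.8% against the selected-on-stiff list. The selected-on-stiff and ancestral-on-soft shares over all peaks were 58.8% and 34.7%. None was recomputed over all peaks under the other settings. A −log10 q of at least 10 keeps 57.5% and 63.2% of the selected lists (soft and stiff), against 78.7% and 81.4% of the ancestral lists. Those settings do not test which peaks carry the shares of the 9 genes, since a limit on strength also removes partners of kept peaks. Against the ancestral-on-soft list, the 52 peaks in the selected-on-soft list only had a median relative pileup of 0.67, and 43 lay at ASAP1. Regions in both selected lists only, 6, numbered 2 with −log10 q of at least 10, 11 with undetermined counted as absent and 1 without ASAP1. Regions in both ancestral lists only, 14, numbered 26 with −log10 q of at least 10 and 9 with a window of 10 kb.

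The median log2 pileup ratios between selected and ancestral lists were −0.071 on soft gel without centring and −0.93 from fold enrichment, and −0.82 from fold enrichment on stiff gel. Scaled to regions in all 4 lists, they were −0.068 on soft gel, −0.073 on stiff gel and −0.029 between the selected lists. Between the ancestral lists the ratio was −0.30 without centring and −0.26 from fold enrichment, and between the selected lists −0.30 from fold enrichment. All kept their sign. The balance of unshared peaks turned sign at single genes in 5 cases: ASAP1 to −14 (−log10 q) and −4 (top peaks) for selected on soft against ancestral on soft, to 5 (100 kb window) on stiff gel and to −2 (−log10 q) between the selected lists, and MYOF to 1 (top peaks) between the ancestral lists. The causes were not tested. No paired analysis was possible because each group has a single list, and no sample could be left out. Read totals are not in these lists, and what depth limits could not be measured; the lowest relative pileup was 0.53 and 0.46 in the selected lists (soft and stiff), against 0.28 in both ancestral lists.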
